A study of Mus musculus with 24 samples.

Results

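The genes described here are 8 subunits of the GABA-A receptor: Gabra2, Gabra3, Gabra4, Gabra5, Gabrb1, Gabrd, Gabre and Gabrq. They and all gene lists below were chosen by name, with earlier results of these data known. The shares of all genes set beside their counts are therefore a description and not a test. Each of the 8 was read from the 1 probe set that the array's annotation gives it, out of 19937 genes measured. RNA came from the whole hypothalamus of male mice of an inbred hypertensive strain, BPH/2J, and of the normotensive strain kept beside it, BPN/3J. The groups were BPH/2J at 26 weeks, BPN/3J at 26 weeks, BPH/2J at 6 weeks and BPN/3J at 6 weeks of age, with 6 mice and 6 arrays each and no pooled animals. No mouse carried a transgene or received a drug in the labels, housing was standard, and all tissue was taken when blood pressure was at its daily peak. The strains are separate inbred lines, so a strain difference covers every locus at which they differ as well as blood pressure itself.

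GABA-A receptors are chloride channels built of several subunits and opened by GABA, the main inhibitory transmitter of the brain. Alpha and beta subunits together form the GABA binding site, and a gamma subunit beside an alpha subunit forms the site for benzodiazepines and helps hold the receptor at synapses. Receptors with the alpha4 and delta subunits sit outside synapses, are sensitive to neurosteroids and are abundant in thalamic relay neurons. The epsilon and theta subunits are found mainly in the hypothalamus and in monoamine cell groups of the brainstem, and GABA input to the hypothalamic paraventricular nucleus is known to restrain sympathetic outflow.

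The genes lie in clusters, and among protein-coding genes of RefSeq assembly GRCm38.p6 Gabra3 and Gabrq are adjacent on chromosome X, with Magea10 alone between Gabra3 and Gabre. Gabra2, Gabra4 and Gabrb1 lie on chromosome 5, Gabra5 on chromosome 7 beside Gabrg3, and Gabrd on chromosome 4 apart from other subunits. Promoter windows of 4 genes are shown because these genes carry the contrasts below: Gabre and Gabrq were higher and Gabra4 lower in young BPH/2J mice, and Gabrb1, whose first start lies 387 bases from that of Gabra4 on the opposite strand, did not pass the test. Each window runs 250 bases before to 50 bases after a RefSeq start (GRCm38.p6), 5′ to 3′ on the gene's own strand, with each GC box (GGGCGG or its complement CCGCCC) in capitals.
Gabre, chrX:72274672-72274971, minus strand: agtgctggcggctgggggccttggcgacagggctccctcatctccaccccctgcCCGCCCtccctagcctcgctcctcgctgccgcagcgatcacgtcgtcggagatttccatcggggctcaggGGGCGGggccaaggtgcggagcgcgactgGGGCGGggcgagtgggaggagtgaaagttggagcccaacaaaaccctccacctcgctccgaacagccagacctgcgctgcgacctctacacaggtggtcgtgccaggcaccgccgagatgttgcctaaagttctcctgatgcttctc
Gabrq, chrX:72824928-72825227, plus strand: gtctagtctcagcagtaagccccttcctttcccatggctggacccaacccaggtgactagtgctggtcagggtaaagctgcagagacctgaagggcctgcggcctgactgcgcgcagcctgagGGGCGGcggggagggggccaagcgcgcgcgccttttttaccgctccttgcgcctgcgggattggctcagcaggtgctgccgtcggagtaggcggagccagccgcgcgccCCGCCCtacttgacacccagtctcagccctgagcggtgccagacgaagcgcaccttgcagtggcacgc
Gabra4, chr5:71658259-71658558, minus strand: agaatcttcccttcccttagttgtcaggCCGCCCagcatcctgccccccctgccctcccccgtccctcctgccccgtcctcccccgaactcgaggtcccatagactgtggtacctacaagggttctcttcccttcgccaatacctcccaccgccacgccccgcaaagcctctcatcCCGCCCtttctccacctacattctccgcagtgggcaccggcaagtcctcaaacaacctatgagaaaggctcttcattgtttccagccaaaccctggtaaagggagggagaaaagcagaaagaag
Gabrb1, chr5:71657671-71657970, plus strand: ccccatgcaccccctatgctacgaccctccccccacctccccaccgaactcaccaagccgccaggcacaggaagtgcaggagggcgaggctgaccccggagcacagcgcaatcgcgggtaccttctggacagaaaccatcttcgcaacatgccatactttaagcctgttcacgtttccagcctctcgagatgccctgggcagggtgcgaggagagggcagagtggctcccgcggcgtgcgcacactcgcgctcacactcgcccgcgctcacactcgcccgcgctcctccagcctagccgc

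The Gabre window held 3 GC boxes and the Gabrq and Gabra4 windows 2 each, while the Gabrb1 window held 0. GC bases made up 66.7% of the Gabre window, 67% for Gabrq, 58.7% for Gabra4 and 66.0% for Gabrb1, against a median of 52.7% over all 32851 promoter windows. RefSeq windows were found for 7 of the 8 genes, 9 windows in all, and 4 of the 9 held a GC box on either strand, against 35.7% of all windows. TATAAA was in 2 of the 9 windows, against 13.6% of all, but both are windows of Gabra3 that overlap by 188 bases and hold the same 1 site. Neither TGACGTCA, the cAMP response element, nor AGGTCA, the core motif bound by ROR receptors, nor ATCAAAG, the TCF/LEF site, was in any of the 9, against 1.79%, 16.3% and 3.73% of all windows. The motifs were read on both strands and do not overlap one another in letters, and a match or its absence describes these letters only.

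Values are RMA values on the log2 scale (differences are in log2 units), and RMA scales the arrays to one another, so a difference is not one in absolute amount of RNA. Array medians lay between 5.89 and 6.09, arrays of a group correlated at 0.986 to 0.997 with the others of it, and the lowest value of any of the 8 genes was 5.86, above the 4.60 to 5.25 that was the median of unnamed probe sets over arrays. The 90th percentile of unnamed probe sets was 8.65 to 8.82, and all Gabre values (5.86 to 7.70) lay below that. The number of arrays limits the precision. At 26 weeks, replicates 1 to 4 of both strains (8 arrays) stood apart from replicates 5 and 6 of both strains (4 arrays) for 2733 genes, none of them a subunit gene named above. Tns1, for example, was at 7.09 to 7.68 on the 8 arrays, against 9.41 to 10.03 on the other 4 and 8.77 to 9.40 on the 12 arrays from 6 weeks. The labels give no reason for this, so 26-week values are also given for each set. One 6-week BPH/2J array, replicate 2, differed from the other 5 of its group in several of the genes below, and some results are given with and without it.

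In young mice the subunit genes moved in opposite directions. At 6 weeks, 6 of the 8 passed the limma test (adjusted p below 0.05), against 7.42% of all genes. Gabre, Gabrq, Gabra5 and Gabra2 were higher in BPH/2J, against 2.99% of all genes, and Gabrd and Gabra4 were lower, against 4.42%. With arrays centred on their medians the split of all calls was 342 higher and 995 lower, against 597 and 882 as deposited, and the directions of the 6 genes did not change. For 3 of them, Gabre, Gabrq and Gabra2, the 6 BPH/2J arrays did not overlap the 6 BPN/3J arrays, against 5.44% of all genes. In whole tissue, fewer cells of a type and less RNA per cell cannot be told apart.

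**Figure D1:**
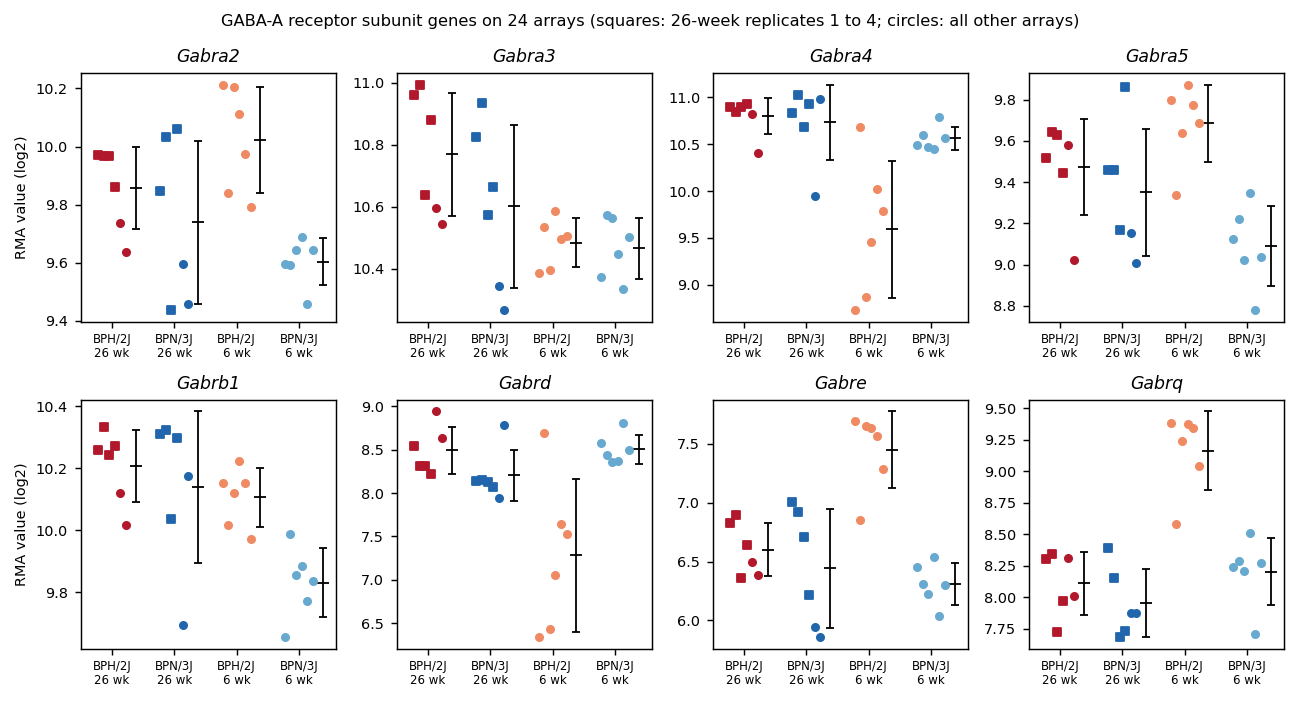
RMA value (log2, vertical axis) of each of the 8 subunit genes on every array, by strain and age (horizontal axis), with the group mean and SD as a bar beside the points (n = 6 per group). Squares mark replicates 1 to 4 of the 26-week groups. Gabre and Gabrq stand highest in 6-week BPH/2J mice, and 5 of the 6 arrays of that group lie below all other groups' arrays for Gabrd.

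Gabre (probe set 10604944), the epsilon subunit, which makes receptors insensitive to benzodiazepines, gave the 6-week BPH/2J values 7.70, 6.86, 7.65, 7.64, 7.56 and 7.29, against 6.45, 6.31, 6.22, 6.54, 6.03 and 6.30 in BPN/3J of the same age. Every BPH/2J array was above every BPN/3J array, and replicate 2 was the lowest of them. The difference was 1.14 ± 0.17 (SE, n = 6 per group, adjusted p = 0.000101), a 2.20-fold level. Without replicate 2 of BPH/2J it was 1.26.

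Gabrq (10600069), the theta subunit, whose gene lies in the same cluster of chromosome X, followed the same pattern. Its values were 9.39, 8.58, 9.24, 9.38, 9.34 and 9.04 in 6-week BPH/2J mice, against 8.24, 8.28, 8.21, 8.51, 7.70 and 8.27 in BPN/3J. Again no arrays overlapped, and replicate 2 was again the lowest BPH/2J array. The difference was 0.96 ± 0.15 (adjusted p = 0.000101), a 1.94-fold level, and 1.08 without that array.

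Gabra5 (10563872), the alpha5 subunit, known from extrasynaptic receptors of the hippocampus, ranged over 9.34, 9.73 and 9.87 (lowest, median, highest) in 6-week BPH/2J mice, against 8.78, 9.08 and 9.35 in BPN/3J. Only the lowest BPH/2J array, replicate 2, fell below the highest BPN/3J array. The difference was 0.60 ± 0.13 (adjusted p = 0.00319), and 0.67 without replicate 2.

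Gabra2 (10530406), the alpha2 subunit, found at synapses on the cell body and the axon's initial segment, had a lowest, median and highest value of 9.79, 10.04 and 10.21 in BPH/2J, against 9.46, 9.62 and 9.69 in BPN/3J. The groups did not overlap, but the gap was narrow. The difference was 0.42 ± 0.10 (adjusted p = 0.0105), and it lost its call when arrays were centred on their medians (0.38, adjusted p = 0.053).

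Gabrd (10519124), the delta subunit of extrasynaptic receptors, went the other way. Its 6-week BPH/2J values were 6.34, 8.70, 6.43, 7.05, 7.64 and 7.53, against 8.57, 8.44, 8.35, 8.37, 8.80 and 8.50 in BPN/3J. In BPH/2J, 5 arrays lay below all BPN/3J arrays and replicate 2 lay within their range, so the BPH/2J SD was 0.88, against 0.17 in BPN/3J. The difference was -1.23 ± 0.25 (adjusted p = 0.00249), a 0.427-fold level, and -1.51 without replicate 2.

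Gabra4 (10530421), the alpha4 subunit, the usual partner of delta in the thalamus, gave 8.73, 10.69, 8.87, 9.46, 10.02 and 9.79 in 6-week BPH/2J mice, against 10.49, 10.60, 10.47, 10.44, 10.79 and 10.57 in BPN/3J. The same 5 BPH/2J arrays lay below the BPN/3J range, in the same order as for Gabrd, and replicate 2 lay inside it. The difference was -0.97 ± 0.23 (adjusted p = 0.00695), a 0.511-fold level, and -1.19 without replicate 2.

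The other two genes did not pass the test at 6 weeks. Gabrb1 (10522324), a beta subunit, had a lowest, median and highest value of 9.97, 10.14 and 10.22 in BPH/2J, against 9.66, 9.85 and 9.99 in BPN/3J, a difference of 0.27 ± 0.09 (adjusted p = 0.0566). It passed in 5 of 24 fits that left out 1 array, among them the fit without replicate 2 of BPH/2J (0.29, adjusted p = 0.0464), and with replicate numbers as a block (adjusted p = 0.0347). It also passed with only the compared groups in the fit, with dim genes left out and with an intensity trend (adjusted p = 0.00998, 0.0449 and 0.0417). It did not pass with all probe sets of a gene averaged, with arrays centred on their medians or with the thalamus covariate described below. Gabra3 (10604961), the alpha3 subunit of the thalamic reticular nucleus and of monoamine neurons, averaged 10.48 ± 0.08 in BPH/2J and 10.47 ± 0.10 in BPN/3J (SD, n = 6 each), and the 95% interval of its difference ran from -0.18 to 0.22.

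Markers of the thalamus and of hypothalamic neurons moved with these values. Over all genes 2.99% were higher and 4.42% lower in 6-week BPH/2J. Markers of hypothalamic neurons and of the thalamus, which borders the hypothalamus, were both present on every array. Of 16 thalamus markers, 13 were lower in 6-week BPH/2J and 0 higher, with a median difference of -0.99, against 0.01 over all genes. Their mean was at 7.62 to 9.27 on the BPH/2J arrays, against 9.22 to 9.59 on the BPN/3J arrays, and replicate 2, at 9.27, was the 1 BPH/2J array inside the BPN/3J range. Of 21 measured markers of hypothalamic neurons 10 were higher and 0 lower, with a mean of 7.75 to 8.39 in BPH/2J, lowest in replicate 2, against 7.21 to 7.71 in BPN/3J. Among them the neuropeptide gene Gal was higher by 1.56 ± 0.18 and Nkx2-1, a transcription factor of the developing hypothalamus, by 0.66 ± 0.10 (adjusted p = 1.97e-06 and 0.000139). Of 12 oligodendrocyte markers 6 were lower and 0 higher, and of 9 microglia markers 2 were lower and 0 higher, with a mean of 7.15 to 7.27 in BPH/2J, against 7.28 to 7.45 in BPN/3J. Of 10 markers of astrocytes and tanycytes 2 were higher and 0 lower. Of 9 cortex markers 1 was higher and 2 lower, and of 8 striatum markers 1 was higher and 1 lower. Of 10 markers of choroid plexus and ependyma and 8 of the pituitary, 0 passed.

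Within 6-week BPH/2J mice, Gabrd and Gabra4 ranked the 6 arrays exactly as the thalamus marker mean did. Pearson's r was 0.996 for Gabrd and 0.998 for Gabra4, and Spearman's rho was 1.0 for both (n = 6, exact permutation test, two-sided). For r the p was 0.00139, the smallest that 6 arrays can give, and 0.0222 adjusted over 32 relations, and for rho 0.00278 and 0.0444 adjusted. The marker list was chosen with earlier results of these data known. The p-values of relations to its mean, here and below, are therefore a description. Without the 2 arrays farthest from the median of the marker mean r was 0.996 for Gabrd and 0.999 for Gabra4. Gabre and Gabrq ran against the markers in the same mice (r of -0.871 and -0.781, rho of -0.943 and -0.714, exact permutation p = 0.0139 and 0.0653 for r and 0.0167 and 0.136 for rho), which did not pass after adjustment (0.104 and 0.209 for r, 0.133 and 0.436 for rho). Without the 2 farthest arrays r was -0.558 for Gabre and -0.084 for Gabrq.

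**Figure D2:**
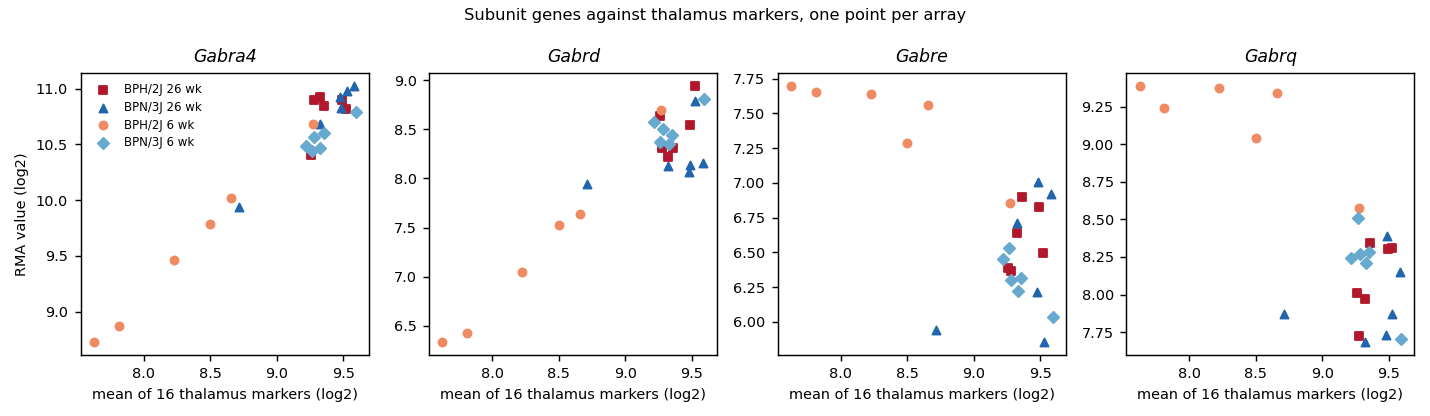
RMA value (log2, vertical axis) of Gabra4, Gabrd, Gabre and Gabrq against the mean of 16 thalamus markers (log2, horizontal axis), 1 point per array. The 6-week BPH/2J arrays (orange circles) spread along a line for Gabra4 and Gabrd, and their replicate 2, with a marker mean of 9.27, lies among the other groups.

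With the thalamus marker mean as a covariate, none of the 8 genes passed at 6 weeks, and 180 of all genes did. The Gabrd difference was then -0.01 ± 0.19 and that of Gabra4 0.22 ± 0.10, a reversed sign, with adjusted p of 0.996 and 0.508. The Gabre difference was 0.92 ± 0.26 (adjusted p = 0.10) and that of Gabrq 0.69 ± 0.21 (adjusted p = 0.155), both smaller and with larger errors than in the fit without the covariate. How much of each difference the amount of thalamic tissue accounts for was not tested.

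In adult mice none of the 8 genes differed between the strains by the limma test at 26 weeks, against 2.67% of all genes, none had an unadjusted p below 0.05, against 12.5% of all genes, and in none did the strains' arrays not overlap, against 1.75%. The 8 differences lay between 0.07 and 0.29, and every 95% interval of that fit included 0. The signs were not stable, since without BPN/3J replicate 5 Gabra4 was at -0.09 and Gabrb1 at -0.02. With the replicate numbers as a block, Gabra3 had an interval above 0 (0.05 to 0.29, unadjusted p = 0.00937, adjusted p = 0.14), while the other 7 intervals included 0. Some markers did differ at 26 weeks. Of 21 hypothalamic neuron markers 2 were higher in BPH/2J, Gal by 0.96 and Hcrt by 1.19. Of 16 thalamus markers 1 was lower, Tnnt1 (-0.97), and of 9 microglia markers 1 was lower. No marker of the other lists passed. Gal and Tnnt1 had also passed at 6 weeks, in the same directions.

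**Figure D3:**
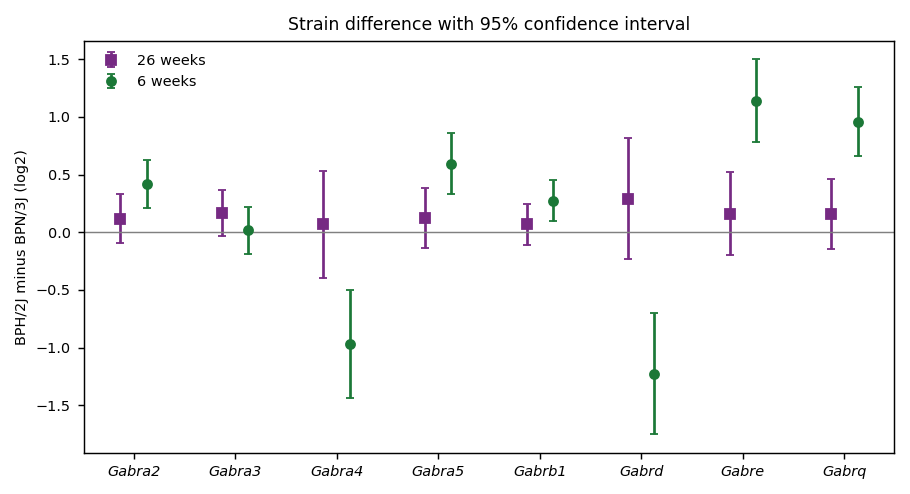
Difference of BPH/2J minus BPN/3J (log2, vertical axis) for each subunit gene at 26 weeks (squares) and 6 weeks (circles), with 95% confidence intervals from the limma fit. All 26-week intervals include 0, and at 6 weeks Gabre and Gabrq lie above 0 and Gabra4 and Gabrd below it.

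Gabre gave 6.82, 6.90, 6.36, 6.64, 6.49 and 6.39 in 26-week BPH/2J mice, against 7.01, 6.92, 6.71, 6.21, 5.94 and 5.86 in BPN/3J. The strains overlapped broadly, and the spread in BPN/3J followed the array sets, with replicates 5 and 6 lowest. The difference was 0.16 ± 0.17 (95% interval -0.20 to 0.52), and it was -0.03 in replicates 1 to 4 and 0.54 in replicates 5 and 6, neither of which passed.

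Gabrq was at 8.30, 8.34, 7.72, 7.97, 8.31 and 8.01 in BPH/2J, against 8.39, 8.15, 7.69, 7.73, 7.87 and 7.87 in BPN/3J, a difference of 0.16 ± 0.15 (95% interval -0.14 to 0.46). The upper bounds for Gabre and Gabrq are below their 6-week differences of 1.14 and 0.96.

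Gabrd was at 8.54, 8.31, 8.31, 8.22, 8.94 and 8.64 in BPH/2J and at 8.14, 8.15, 8.13, 8.07, 7.94 and 8.78 in BPN/3J. BPH/2J was the higher strain except against BPN/3J replicate 6, which lay above 5 of the 6 BPH/2J arrays. The difference was 0.29 ± 0.25 (95% interval -0.23 to 0.81), in a fit that shares the wide Gabrd spread of the young BPH/2J mice. With only the compared groups in the fit the SE was 0.14, and Gabrd did not pass (adjusted p = 0.616).

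Gabra4 had a lowest, median and highest value of 10.41, 10.87 and 10.93 in BPH/2J, against 9.94, 10.88 and 11.02 in BPN/3J, a difference of 0.07 ± 0.23 (95% interval -0.40 to 0.53). With only the compared groups in the fit its SE was 0.16, and it did not pass (adjusted p = 0.978). The low BPN/3J array was replicate 5, whose thalamus marker mean was 8.71, against 9.32 to 9.58 on the other 5. In that group Gabra4 followed the marker mean with r = 0.996 and rho = 0.943 (n = 6, exact permutation p = 0.00278 and 0.0167, adjusted 0.0296 and 0.133), and r was 0.832 without the 2 farthest arrays. Gabra2, Gabra3, Gabra5 and Gabrb1 differed by 0.12, 0.17, 0.12 and 0.07, with intervals whose upper bounds were at most 0.38. For Gabra3 the BPH/2J array was above the BPN/3J array of the same number in 6 of 6 pairs, by 0.06 to 0.28. The labels do not tie these mice together.

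The change of the strain difference with age was itself tested as an interaction, the 26-week difference minus the 6-week one. None of the 8 passed, against 0.0301% of all genes, which is 6 genes. At an unadjusted p below 0.05 there were 6 of the 8, against 10.8% of all genes. The interaction was 1.52 ± 0.36 for Gabrd (adjusted p = 0.0716), -0.98 ± 0.25 for Gabre (adjusted p = 0.0841), -0.80 ± 0.21 for Gabrq (adjusted p = 0.0912) and 1.04 ± 0.32 for Gabra4 (adjusted p = 0.162). With the replicate numbers as a block, Gabre passed (adjusted p = 0.0464) and 49 of all genes did. With arrays centred on their medians Gabrd passed (1.59, adjusted p = 0.0459). With the thalamus covariate none of the 8 passed, with Gabrd at 0.28, Gabre at -0.76, Gabrq at -0.53 and Gabra4 at -0.18, a turned sign. Calls in the interaction also turned on 1 array. Without 6-week BPH/2J replicate 2 all 4 passed, with Gabrd at 1.80 (adjusted p = 0.000714), Gabrq at -0.92 (adjusted p = 0.007), Gabre at -1.10 and Gabra4 at 1.26 (adjusted p = 0.00845 for both).

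In BPH/2J, 5 of the 8 subunit genes changed between 6 and 26 weeks, against 16.9% of all genes, with Gabra4, Gabrd and Gabra3 higher at 26 weeks, against 8.23%, and Gabre and Gabrq lower, against 8.64%. The split of all calls was 1640 higher and 1722 lower, and 2000 and 860 with arrays centred on their medians, while the same 5 subunit genes passed. Gabrq was the 1 gene whose arrays did not overlap, against 4.05%. These age contrasts share the 6-week BPH/2J arrays with the strain comparison at 6 weeks, so they are not separate evidence of the same pattern.

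**Figure D4:**
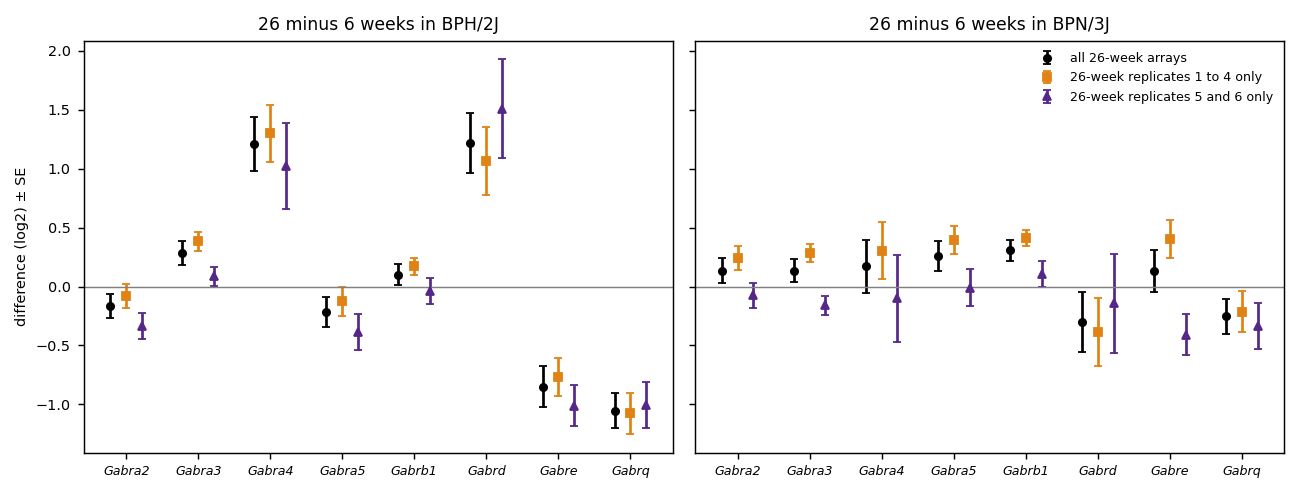
Difference of 26 minus 6 weeks (log2, vertical axis, ± SE) for each subunit gene in BPH/2J (left) and BPN/3J (right), with all 26-week arrays, with replicates 1 to 4 alone and with replicates 5 and 6 alone. In BPH/2J, Gabra4 and Gabrd are above 0 and Gabre and Gabrq below it in all 3 cases, while Gabrb1 in BPN/3J stands at 0.31, 0.41 and 0.10.

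Gabrq was 7.72 to 8.34 at 26 weeks, against 8.58 to 9.39 at 6 weeks, in BPH/2J, so the highest adult array lay below the lowest young one. It fell by 1.05 ± 0.15 (adjusted p = 0.00011), a 0.482-fold level. The value was -1.08 with 26-week replicates 1 to 4 alone and -1.0 with replicates 5 and 6 alone, and it passed in both.

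Gabre was 6.36 to 6.90 at 26 weeks, against 6.86 to 7.70 at 6 weeks, and only replicate 2 of the young mice reached the adult range. The difference was -0.85 ± 0.17 (adjusted p = 0.00199), and -0.97 without that replicate. It passed in both array sets, at -0.77 and -1.01.

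Gabra4 was 10.41 to 10.93 at 26 weeks, against 8.73 to 10.69 at 6 weeks, a difference of 1.21 ± 0.23 (adjusted p = 0.000994). Gabrd was 8.22 to 8.94 at 26 weeks, against 6.34 to 8.70 at 6 weeks, a difference of 1.21 ± 0.25 (adjusted p = 0.0023). For both genes the young replicate 2 alone lay in the adult range. With 26-week replicates 5 and 6 alone the differences were 1.02 and 1.51 and did not pass (adjusted p = 0.152 and 0.0682). Of the thalamus markers 13 rose with age in BPH/2J, and with their mean as a covariate none of the 8 subunit genes passed, with Gabra4 at -0.02, Gabrd at -0.04, Gabre at -0.63 and Gabrq at -0.77. Of the 21 hypothalamic neuron markers 9 fell with age in BPH/2J and 0 rose, and their mean was at 7.46 to 7.96 at 26 weeks, against 7.75 to 8.39 at 6 weeks. Of the 10 markers of astrocytes and tanycytes 4 fell and 0 rose, against 8.64% and 8.23% of all genes. The part of these markers in the fall of Gabre and Gabrq was not tested.

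Gabra3 was 10.54 to 10.99 at 26 weeks, against 10.39 to 10.59 at 6 weeks, in BPH/2J. Its difference of 0.28 ± 0.10 was near the threshold (adjusted p = 0.0472) and passed in 7 of 24 fits that left out 1 array. It was 0.38 with replicates 1 to 4 and 0.09 with replicates 5 and 6, and with the array set as a term it was 0.04 and did not pass, while Gabra2, at -0.36, then did (adjusted p = 0.0464). Gabra2, Gabra5 and Gabrb1 differed by -0.17, -0.21 and 0.10 on all arrays and did not pass.

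In BPN/3J, Gabrb1 alone passed the age comparison, 1 of 8 against 12.3% of all genes, and no gene of the 8 had age groups that did not overlap, against 4.57%. Gabrb1 was at 10.31, 10.32, 10.04, 10.30, 9.70 and 10.17 in 26-week BPN/3J mice, against 9.66, 9.99, 9.86, 9.88, 9.77 and 9.84 at 6 weeks. All but adult replicate 5 were above every young array. The difference was 0.31 ± 0.09 (adjusted p = 0.0255), and it lost its call without any 1 of BPN/3J replicates 1, 2 and 4 at 26 weeks or replicate 1 at 6 weeks (adjusted p up to 0.0725). It was 0.41 with 26-week replicates 1 to 4, 0.10 with replicates 5 and 6 and 0.14 with the array set as a term (adjusted p = 0.536).

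The other 7 genes differed by -0.30 (Gabrd) to 0.26 (Gabra5) with age in BPN/3J. The thalamus marker mean was 9.35 ± 0.32 in the adult and 9.34 ± 0.13 in the young BPN/3J mice (SD, n = 6 each), and none of its 16 genes passed. In the same comparison 6 of 12 oligodendrocyte markers (median -0.47), 2 of 10 markers of astrocytes and tanycytes and 2 of 21 hypothalamic neuron markers were lower and 0 of these higher. Of all 19937 genes, 1528 were lower and 917 higher. The part of these markers in the Gabrb1 call was not tested. Gabrd was 7.94 to 8.78 at 26 weeks, against 8.35 to 8.80 at 6 weeks, in BPN/3J, and 5 of the 6 adult arrays were below every young one. Its difference of -0.30 ± 0.25 did not pass (adjusted p = 0.446), in a fit that shares the wide Gabrd spread of the young BPH/2J mice.

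Over the 4 groups the genes fell into a few orders of level. Gabre, Gabra5 and Gabra2 were highest in 6-week BPH/2J, then 26-week BPH/2J, 26-week BPN/3J and 6-week BPN/3J, with neighbours in that order overlapping in each case. Gabrq began with 6-week BPH/2J as well, apart from all other groups, then 6-week BPN/3J, 26-week BPH/2J and 26-week BPN/3J, which overlapped. Gabra4 and Gabrd ended with 6-week BPH/2J, and Gabra3 and Gabrb1 were highest in the adult groups, BPH/2J first. For these 4 genes all neighbours in the order overlapped.

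Within groups some of the genes rose and fell together from mouse to mouse. Of 28 pairs, tested on deviations from group means over 24 arrays with 100000 permutations within groups and adjusted over the pairs, the highest Pearson's r was that of Gabra4 with Gabrd (r = 0.821, rho = 0.608, adjusted permutation p = 0.0106 and 0.0438). It was 0.606 without the 2 arrays farthest from the median and 0.965 on deviations from the means of group and array set. Gabre and Gabrq gave r = 0.721 and the highest rho of all pairs, 0.733 (adjusted permutation p = 0.00182 and 0.00448), 0.689 without 2 arrays and 0.890 within the array sets. Gabra2 and Gabra5 gave r = 0.759 and rho = 0.694 (adjusted permutation p = 0.00182 and 0.00651), 0.721 without 2 arrays and 0.660 within the array sets. Gabrd ran against Gabra2 (r = -0.571, rho = -0.572, adjusted permutation p = 0.0156 and 0.0413). Gabra3 and Gabrb1, at r = 0.657, fell to 0.347 within the array sets. The genes of a pair are read from the same RNA on the same array, and these relations were not tested for a common source.

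In deviations from group means over the 24 arrays, the gene most like Gabrd was Prkcd (r = 0.958), followed by Rora (0.955). Both are in the thalamus marker list used above, so this is not separate from the relation to the marker mean. Gabra4 was most like Vav3 (0.977) and Pdp1 (0.975), and Gabre most like Fndc9 (0.924) and Gpc3 (0.904). Gabrq was most like AW551984 (0.960) and Celf6 (0.895), Gabra3 like Meaf6 (0.931) and Syt4 (0.928), and Gabrb1 like Aff4 (0.934) and Xpo1 (0.895). The weakest matches were those of Gabra2, with Foxj3 (0.884) and Cd24a (0.881), and of Gabra5, with Gpc4 (0.832) and Trpc5 (0.810). These are the highest correlations over all other genes and are given as a description.

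Of the other subunit genes of the receptor family, 8 were analysed here. At 6 weeks 2 of the 8 were higher in BPH/2J and 1 lower, against 2.99% and 4.42% of all genes. Gabrg1, a gamma subunit next to Gabra2 in the genome, averaged 9.28 ± 0.17 in BPH/2J and 8.88 ± 0.07 in BPN/3J (SD, n = 6 each) with no overlap, a difference of 0.40 ± 0.12 (adjusted p = 0.0354). Gabrg3, next to Gabra5, was higher by 0.30 ± 0.08 (adjusted p = 0.0117), and Gabrb2, the beta subunit most common in the thalamus, was lower by 0.32 (difference -0.32 ± 0.07, adjusted p = 0.00664). Gabrb2 was at 11.37 in replicate 2 of BPH/2J, against 10.80 to 10.96 on the other 5 arrays of that group. With the thalamus covariate the differences were 0.48, 0.25 and -0.05, and none passed. Gabra6, Gabrp, Gabrr1, Gabrr2 and Gabrr3 differed by -0.13 to 0.21 and did not pass. Gabra6, Gabrp and Gabrr3 lay at 3.77 to 4.74, about or below the median of unnamed probe sets, so they are not shown to be above background. At 26 weeks 0 of the 8 passed, and with age in BPH/2J Gabrb2 alone rose (0.34 ± 0.07, adjusted p = 0.00305).

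**Figure D5:**
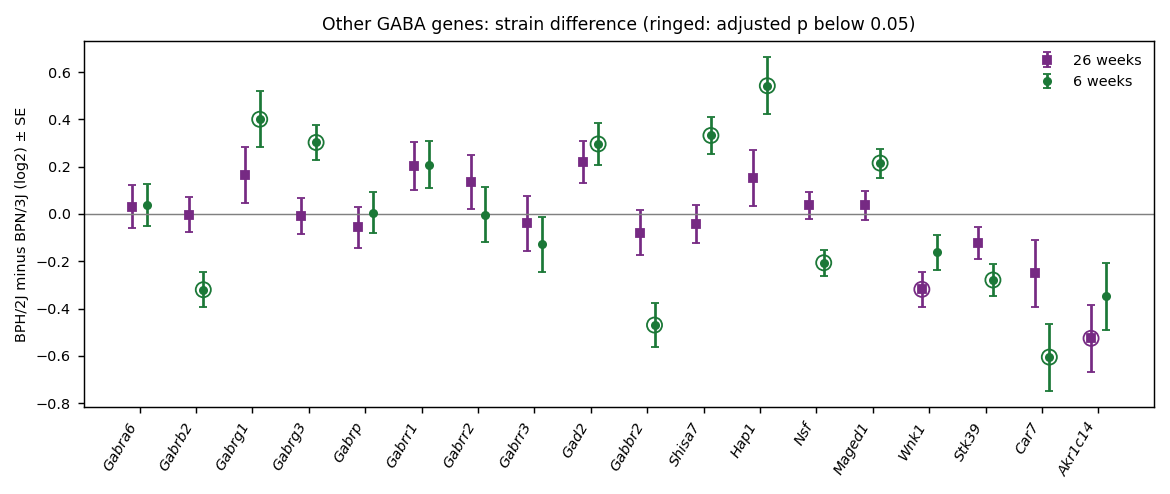
Difference of BPH/2J minus BPN/3J (log2, vertical axis, ± SE) for the other measured subunit genes and for genes of GABA supply, GABA-B receptors, receptor trafficking, chloride and neurosteroids that passed in a strain comparison, at 26 weeks (squares) and 6 weeks (circles). Rings mark an adjusted p below 0.05; 2 of the 26-week points, Wnk1 and Akr1c14, are ringed.

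Calls were also made among genes that make, carry or act beside GABA, where the shares over all genes at 6 weeks were again 2.99% higher and 4.42% lower. Of 8 genes of GABA synthesis, transport and breakdown, 1 was higher in BPH/2J at 6 weeks: Gad2, a GABA-making enzyme, at 10.83 to 11.07, against 10.48 to 10.92 in BPN/3J (0.30 ± 0.09, adjusted p = 0.0392). It passed in 15 of 24 fits that left out 1 array. Of 6 genes of the GABA-B receptor group, Gabbr2, one of the receptor's own subunits, was lower (-0.47 ± 0.09, adjusted p = 0.00194), at -0.15 with the thalamus covariate.

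Of 20 genes of receptor anchoring and trafficking, 3 were higher and 1 lower at 6 weeks. Hap1, which is enriched in the hypothalamus and carries GABA-A receptors to the surface, was at 10.60 to 11.14 in BPH/2J, against 10.14 to 10.58 in BPN/3J, with no overlap (0.54 ± 0.12, adjusted p = 0.00446). Shisa7, which binds GABA-A receptors and speeds their kinetics, was higher by 0.33 ± 0.08 and Maged1 by 0.22 ± 0.06, while Nsf differed by -0.21 ± 0.06 (adjusted p = 0.00884, 0.0294 and 0.0201). Of 8 genes that set the chloride gradient, 2 were lower: Car7, a carbonic anhydrase of neurons (-0.61 ± 0.14, adjusted p = 0.00723), and Stk39, a kinase that acts on chloride cotransporters (-0.28 ± 0.07, adjusted p = 0.00821). None of 9 genes of neurosteroid synthesis and the benzodiazepine-site peptide passed. With the thalamus covariate none of the 8 genes called in these lists passed, and Car7 was at -0.09, Stk39 at -0.17, Nsf at -0.06, Gad2 at 0.16, Hap1 at 0.28, Shisa7 at 0.36 and Maged1 at 0.13.

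At 26 weeks none of the GABA supply, GABA-B or trafficking genes passed between the strains, and 1 chloride gene and 1 neurosteroid gene did. Wnk1, a kinase upstream of Stk39, was at 9.10 to 9.54 in BPH/2J, against 9.48 to 9.79 in BPN/3J (-0.32 ± 0.08, adjusted p = 0.0153), and it passed in 24 of 24 fits that left out 1 array. It did not pass with arrays centred on their medians (-0.28, adjusted p = 0.0686) or with only the compared groups in the fit (adjusted p = 0.112). Within replicates 1 to 4 and within replicates 5 and 6 it was -0.27 and -0.42 and did not pass. Akr1c14, which makes allopregnanolone, the neurosteroid that acts on delta-containing receptors, was at 4.33 to 5.08 in BPH/2J, against 4.85 to 5.72 in BPN/3J (-0.53 ± 0.14, adjusted p = 0.0411). It passed in 13 of 24 fits that left out 1 array. It did not pass with arrays centred on their medians (-0.49, adjusted p = 0.102) or with only the compared groups in the fit (adjusted p = 0.226). Within replicates 1 to 4 it passed (-0.55, adjusted p = 0.0126), and within replicates 5 and 6 it did not (-0.49, adjusted p = 0.125). Its values lie about the median of unnamed probe sets, so it is measured with little contrast.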

How the data were processed

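Arrays were Affymetrix Mouse Gene 1.0 ST, hybridised with total RNA. The authors deposited 1 value per probe set and array (34760 probe sets, 24 arrays) on the log2 scale, after RMA. The submitters' processing notes name RMA and limma, with versions not given in the sources here. Promoter windows and gene order came from RefSeq (GRCm38.p6). Values ran from 1.54 to 14.3 with 0 missing.

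Sample titles gave each array's group and replicate number. The normotensive strain appears once as BPN/2J in the design text, and the name in the sample labels was kept. In the platform annotation 21640 probe sets had 1 symbol, 1321 had several and 11799 were unnamed. Single-symbol probe sets gave 19937 genes, each taken from the probe set of highest mean value. limma 3.58.1 (R 4.3.3) fitted 4 group means to all 24 arrays (20 residual degrees of freedom) and 5 contrasts, with Benjamini-Hochberg adjustment over all genes and a threshold of 0.05. The code was tested on simulated data. The 8 genes and all lists were chosen with earlier results of these data known. Named beside the 8 genes were called list members, at most 4 per pathway list and 3 per marker list by p, and the 2 genes most like each. The array sets were seen in the data. Same-numbered 26-week arrays of the 2 strains deviated together in 6 of 6 pairs (r 0.130 to 0.444), so they count as pairs by the rule used here. The labels do not tie these mice together, and both strains share the array sets, whose part in this was not tested. Of 6 BPH/2J arrays, 3 were most like the BPN/3J array of their own number. At 6 weeks r between the strains was -0.231 to 0.053. Between 26-week and 6-week BPH/2J arrays it was 0.012 to 0.413, above 0.1 in 4 of 6. No 2 arrays of a group were duplicates (mean absolute difference at least 0.12). Alternatives were a replicate block, only the groups compared, dim genes left out, median centring, a mean-variance trend, the thalamus covariate, the array set, and leaving out each array.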

Additional observations from a re-analysis of the deposited data

Results flagged for a closer look

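Single arrays stood far from the other 5 of their group in 14 of 148 gene and group combinations (37 genes, Dixon's 95% criterion for 6 samples); chance flags about 1 in 20 groups. Among the subunit genes, 26-week BPH/2J replicate 6 was low for Gabra4 at 10.41 (the next at 10.82) and for Gabra5 at 9.02 (the next at 9.44). In 26-week BPN/3J, replicate 5 was low for Gabra4 at 9.94 (the next at 10.68), and replicate 6 was high for Gabrd at 8.78 (the next at 8.15). Of the other subunits, Gabra6 was low at 3.77 in 26-week BPN/3J replicate 6 and high at 4.61 in 6-week BPH/2J replicate 6, Gabrr3 was low at 3.97 in 26-week BPH/2J replicate 5, and Gabrb2 was high at 11.37 in 6-week BPH/2J replicate 2. Gabra6 and Gabrr3 are about or below the level of unnamed probe sets.

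That replicate 2 also stood apart for Hap1 at 10.60, Lhfpl4 at 9.71 and Nsf at 12.24, and its thalamus marker mean was 9.27, against 7.62 to 8.66 on the other 5 arrays. Car7 was high at 8.11 in 26-week BPN/3J replicate 6, Maged1 low at 10.87 in 6-week BPN/3J replicate 5 and Slc12a5 low at 11.11 in 6-week BPN/3J replicate 1. What set these arrays apart was not tested.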

How the results depend on the processing

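Of the 8 subunit genes, 6 passed for strain at 6 weeks, 0 for strain at 26 weeks, 0 for the interaction, 5 for age in BPH/2J and 1 for age in BPN/3J. With the replicate numbers as a block, these counts were 7, 0, 1 (Gabre), 5 and 1. The counts over all genes were then 1933, 675, 49, 3425 and 2445, against 1479, 532, 6, 3362 and 2445 without the block. It tied same-numbered arrays of the strains, but in the age comparisons those of 6-week and 26-week mice of a strain. In BPN/3J such arrays of the 2 ages did not deviate together (r -0.104 to 0.048). Beyond Gabrb1 at 6 weeks and Gabre in the interaction, the block changed no call among the 8 genes. With only the compared groups in the fit Gabrb1 lost its age call in BPN/3J (0 of 8), and all genes called were 2322 for strain at 6 weeks and 248 at 26 weeks. Gabrb1 passed at 6 weeks in that fit, with dim genes left out and with an intensity trend (7 of 8 each). Leaving out dim genes or fitting an intensity trend gave 23 calls over all genes in the interaction, with either choice. Median centring gave 82 there, with 1 subunit gene (Gabrd), and 0 subunit genes for age in BPN/3J. It also turned the split of all calls to 300 higher and 171 lower for strain at 26 weeks (264 and 268 without it), 74 and 8 for the interaction (1 and 5), and 475 and 1646 for age in BPN/3J (917 and 1528). With the thalamus covariate 0 subunit genes passed at 6 weeks and 0 for age in BPH/2J, and all genes called were 180, 0 in the interaction and 8 for age in BPH/2J. It reversed Gabra4 at 6 weeks (0.22) and, for age in BPH/2J, Gabbr2 (-0.017), Gabra4 (-0.023) and Gabrd (-0.040), none of which then passed, and the cause was not tested. The array sets were chosen as alternatives after seeing the data. As a term, the set gave 2 subunit genes in the interaction (Gabrd, Gabre) and 0 for age in BPN/3J, with 881, 251, 1348 and 114 calls over all genes at 26 weeks, in the interaction and with age (BPH/2J, then BPN/3J). Replicates 1 to 4 alone gave 1 and 3 subunit genes in the interaction and for age in BPN/3J, and 19, 7843 and 6702 calls over all genes in the interaction and with age (BPH/2J, then BPN/3J). Replicates 5 and 6 alone gave 2 and 0 subunit genes with age (BPH/2J, then BPN/3J), and 223, 0, 388 and 27 calls over all genes at 26 weeks, in the interaction and with age (BPH/2J, then BPN/3J), with 2 adult arrays per strain. In 24 fits that left out 1 array, the subunit counts ran 6 to 7 at 6 weeks, 0 to 0 at 26 weeks, 0 to 4 in the interaction, 4 to 5 for age in BPH/2J and 0 to 1 for age in BPN/3J. The counts over all genes ran 1034 to 1961, 428 to 721, 0 to 496, 2138 to 4838 and 1034 to 4230 in that order. The highest interaction counts, 4 and 496, came without 6-week BPH/2J replicate 2. Leaving out 1 array turned the sign of 0 differences that had passed. Among differences of the 8 genes that had not passed it turned 5, Gabra3 at 6 weeks in 3 fits (to between -0.0003 and -0.008) and Gabra4 and Gabrb1 at 26 weeks (-0.089 and -0.021), and the other alternatives turned 16, among them Gabra4 in the interaction with the thalamus covariate (-0.18). Arrays have no read depth, and genes near the level of unnamed probe sets, such as Akr1c14, are measured with little contrast.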

Other observations

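Some genes around the receptor changed with age in both strains. The GABA transporter gene Slc6a11 was at 11.49 to 12.16 in 26-week BPH/2J mice, against 12.08 to 12.34 at 6 weeks, and at 11.37 to 11.98 in 26-week BPN/3J mice, against 12.04 to 12.15 at 6 weeks. It fell by 0.48 ± 0.10 in BPH/2J and by 0.42 ± 0.10 in BPN/3J (limma, SE, n = 6 per group, adjusted p = 0.00167 and 0.010). Of 10 markers of astrocytes and tanycytes, 4 fell in BPH/2J and 2 in BPN/3J and 0 rose in either, and their part in this was not tested. Of all 19937 genes, 1722 fell in BPH/2J and 1528 in BPN/3J. Slc12a5, the chloride exporter KCC2 of neurons, fell by 0.41 ± 0.09 and by 0.42 ± 0.09 (adjusted p = 0.00355 and 0.00718). Lhfpl4, a partner of synaptic GABA-A receptors, fell by 0.60 ± 0.11 and by 0.47 ± 0.11 (adjusted p = 0.000636 and 0.0091), and Abat, the GABA-degrading transaminase, by 0.17 ± 0.05 and by 0.21 ± 0.05 (adjusted p = 0.0257 and 0.0128). The chloride channel gene Clcn2 also passed in both strains, at -0.26 ± 0.08 and -0.34 ± 0.08.

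These age changes move with the array sets. With 26-week replicates 5 and 6 alone, Slc6a11 was -0.22 in BPH/2J and -0.15 in BPN/3J, Slc12a5 -0.14 and -0.16 and Lhfpl4 -0.32 and -0.23, and none passed, with 2 adult arrays per strain. With replicates 1 to 4 alone Slc6a11 was -0.62 and -0.55, Slc12a5 -0.54 and -0.55 and Lhfpl4 -0.74 and -0.58.

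Other calls were made in 1 strain, and the difference between strains passed for none of them. In BPH/2J they included Gad2 (-0.31), Gabbr2 (0.31), Hap1 (-0.66), Slitrk3 (0.47), Nsf (0.22), Stk39 (0.35), Car2 (0.35) and Dbi (-0.29), which makes the benzodiazepine-site peptide. In BPN/3J they included Aldh5a1 (-0.38), which finishes GABA breakdown, Kctd12 (-0.23), Gphn (0.27), which makes the synaptic anchor gephyrin, and Wnk1 (0.27).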
